A study of Homo sapiens with 31 samples.

Results

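The 10 genes PAX5, EBF1, TCF3, IKZF1, IKZF3, FOXO1, LEF1, SPIB, POU2AF1 and BACH2 encode transcription factors and a coactivator of the early B lineage, and were chosen by symbol. All 10 were found among the 30667 genes of the table. They were followed over 31 samples of NALM-6, an established line of B-cell precursor acute lymphoblastic leukemia (ALL) that the labels call a preB-ALL cell. Every sample was transduced with a lentivirus in which an shRNA lies in a microRNA-30 cassette behind dsRED. sh-XIAP targets XIAP, a caspase inhibitor, and sh-CTRL targets eGFP. The moderate promoter EF1a or the strong promoter SFFV drives the cassette, and the study calls SFFV/sh-XIAP strong XIAP knockdown (KD) and EF1a/sh-XIAP moderate KD. Samples were taken 4, 10 and 13 days post-transduction. EF1a/sh-CTRL had 3 samples on each day, and SFFV/sh-CTRL had 3, 2 and 2. EF1a/sh-XIAP had 2, 2 and 3 samples, and SFFV/sh-XIAP had 2, 3 and 3. All samples come from 1 cell line, and the labels do not say whether replicates were separate cultures, so that p-values measure the spread between these samples only. The label of each sample places the cells in vitro and is followed here, although the description of the series as a whole speaks of murine bone marrow.

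B-cell identity is built by a hierarchy of transcription factors. The E proteins, of which TCF3 is one, and FOXO1 act early and help to switch on EBF1. EBF1 then activates PAX5, which commits the cell to the lineage, represses genes of other lineages and activates genes of the pre-B-cell receptor and its signalling. IKZF1 and IKZF3 are zinc finger proteins of the Ikaros family, LEF1 is a partner of beta-catenin, SPIB is an ETS factor, POU2AF1 is a coactivator of the octamer-binding factors POU2F1 and POU2F2, and BACH2 is a repressor that holds back plasma cell genes. In B-cell precursor ALL these factors are known as lineage markers, and several are known targets of deletion or rearrangement in this disease.

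RNA was read by prime-seq, which counts unique molecular identifiers (UMIs) at the 3′ end. With one count per molecule, CPM, the UMIs of a gene scaled to the total of its sample, was compared between genes without division by length. The annotation and counting options are not given, and whether the length of a locus affects its count was not tested. Total UMIs ranged from 312852 to 1153668 per sample, with a median of 751952.5 at day 4, 482267 at day 10 and 603822 at day 13. The targeted transcript was scarce. With SFFV/sh-XIAP at days 10 and 13, XIAP stood at 6.35 to 14.6 CPM (39 UMIs in 6 samples), against 4.50 to 15.4 CPM with SFFV/sh-CTRL (19 UMIs in 4 samples). With EF1a it stood at 7.63 to 11.5 CPM under sh-XIAP and at 3.81 to 18.1 CPM under sh-CTRL. At day 4 the samples ranged from 8.02 to 9.26 CPM with SFFV/sh-XIAP, 7.21 to 7.55 with SFFV/sh-CTRL, 9.19 to 12.7 with EF1a/sh-XIAP and 7.12 to 16.1 with EF1a/sh-CTRL. In no pair did all sh-XIAP samples lie below the sh-CTRL samples, so that XIAP counts do not check the labels. The study reports the KD in NALM-6 at the protein level, by Western blot, as moderate with EF1a and strong with SFFV. In bulk RNA, fewer cells with a transcript and less of it per cell cannot be told apart. The 8 markers of B-cell precursors summed to 3861 to 4446 CPM per sample, and none of them was at 0. Of the T-cell list 5 genes had a row and summed to 19.9 to 49.8 CPM, led by GATA3 at 19.1 CPM and TRAC at 9.74 CPM, with BCL11B at 5.26 CPM. The 8 myeloid markers, led by CEBPA, LYZ and CD14, summed to 1.82 to 32.0 CPM. Of the erythroid markers, HBB had 1.22 CPM and ALAS2 had 1 UMI in all. The 4 plasma cell markers with a row summed to 236 to 430 CPM. Nearly all of it came from MZB1 at 345 CPM, which encodes a chaperone of the immunoglobulin heavy chain, ahead of JCHAIN and SDC1. Why MZB1 stood at this level was not tested.

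The 10 genes spanned a wide range of levels. TCF3, on chromosome 19 (GRCh38 1609290 to 1652605, minus strand), had the highest level, with 411 CPM over all samples pooled and rank 328 of 30667. EBF1 (chromosome 5, 158695916 to 159099761, minus strand) followed with 312 CPM and rank 471. PAX5 (chromosome 9, 36833275 to 37034185, minus strand) had 180 CPM and rank 894. These are the 3 factors that specify and commit the lineage, and each lay above at least 97.1% of the genes of the table.

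BACH2 (chromosome 6, 89926529 to 90296908, minus strand) had 174 CPM and rank 947. LEF1 (chromosome 4, 108047545 to 108168956, minus strand) had 164 CPM and rank 1033. POU2AF1 (chromosome 11, 111352252 to 111455630, minus strand) had 97.8 CPM and rank 1994. The repressor, the beta-catenin partner and the coactivator thus followed PAX5.

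FOXO1 (chromosome 13, 40469953 to 40666597, minus strand) had 59.0 CPM and rank 3515. IKZF1 (chromosome 7, 50304068 to 50405101, plus strand) had 56.8 CPM and rank 3643. The lowest were SPIB (chromosome 19, 50418938 to 50431313, plus strand), with 8.42 CPM and rank 10801, and IKZF3 (chromosome 17, 39757715 to 39864188, minus strand), with 1.41 CPM and rank 15736. IKZF3 rested on 29 UMIs in all, and 16 of 31 samples held none. The 2 samples of SFFV/sh-CTRL at day 13 held 0 UMIs together, which allows up to 3.59 CPM. Pooled ranks hardly moved when every sample was thinned to 312852 UMIs and all 31 were pooled again: TCF3 then ranked 342, EBF1 462, PAX5 911 and IKZF3 15203. Ranks within single samples varied more. They ran from 277 to 406 for TCF3, 650 to 1299 for PAX5, 1927 to 5300 for FOXO1 and 2558 to 4920 for IKZF1.

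**Figure D1:**
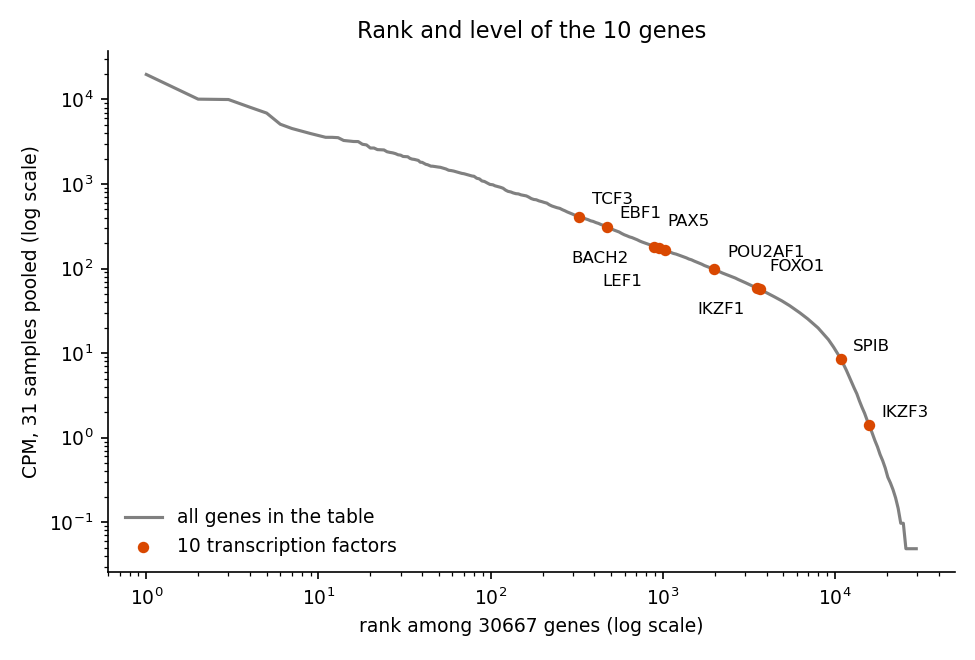
CPM over 31 pooled samples (log axis) against rank among 30667 genes (log axis); the line is every gene and the points are the 10 transcription factors. TCF3 sits at rank 328 and 411 CPM, and IKZF3 at rank 15736 and 1.41 CPM.

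The order was stable at its top and bottom and loose in between. TCF3 was the highest of the 10 genes in 31 of 31 samples and EBF1 the second in 31 of 31. EBF1 and PAX5 did not overlap, with a lowest EBF1 value of 265 CPM and a highest PAX5 value of 233 CPM. PAX5 and BACH2 could not be ordered: PAX5 was higher in 15 samples and BACH2 in 16. BACH2 was above LEF1 in 21 samples and below it in 7. LEF1 was above POU2AF1, and POU2AF1 above FOXO1, each in 30 of 31 samples. FOXO1 and IKZF1 again differed by less than their spread, with FOXO1 higher in 18 samples and IKZF1 in 12. IKZF1 and SPIB did not overlap, since IKZF1 never fell below 41.8 CPM and SPIB never rose above 19.0 CPM.

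**Figure D2:**
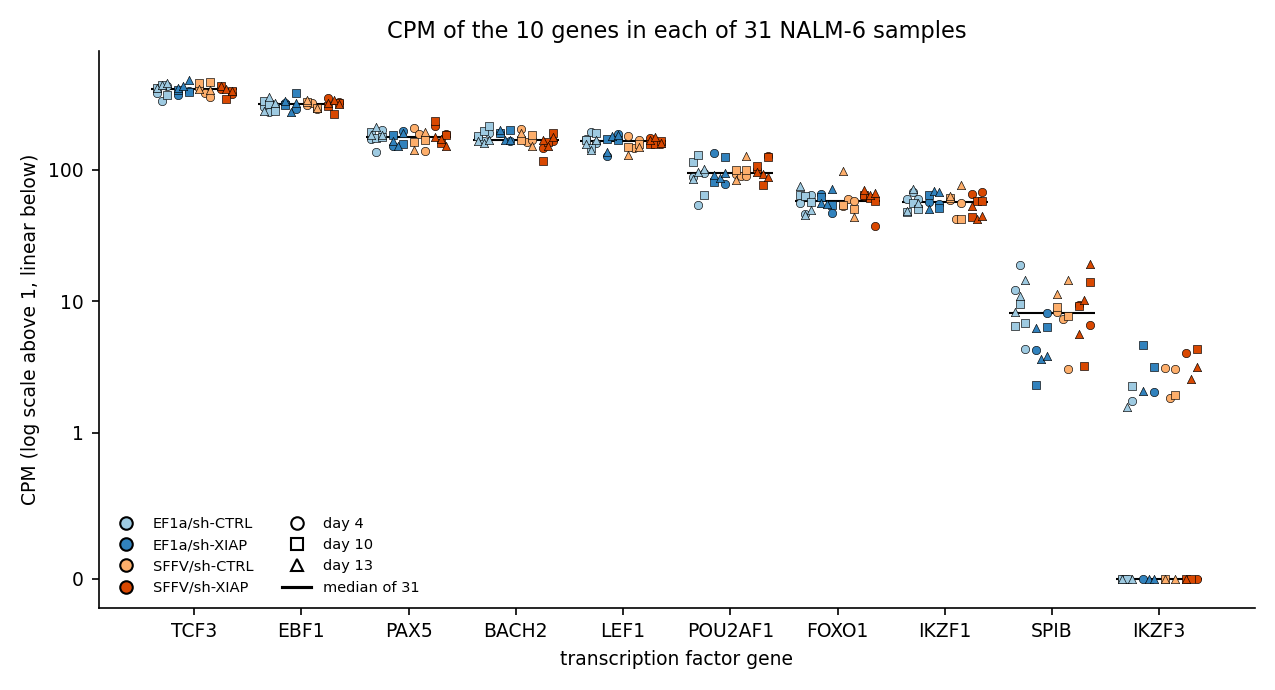
CPM of each gene in each of 31 samples (log scale above 1 CPM, linear below); colours are constructs, symbols are days and the line is the median of 31. TCF3 and EBF1 lie above the other genes, and 16 samples have no IKZF3 UMI.

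Genes near or within the 10 loci were checked, because strand was not stated for the counting. LEF1-AS1, on the opposite strand, held 460 UMIs against 3367 of LEF1, and does not cover the 3′ end of LEF1. LINC00598 covers the 3′ end of FOXO1 on the same strand and held 7 UMIs against 1211. The processed pseudogene AC090844.1 lies within IKZF3 on the same strand and held 70 UMIs, more than the 29 of IKZF3, so that the IKZF3 count is uncertain. The other overlapping genes held at most 51 UMIs each, the number of AC136424.2, which lies opposite EBF1 with its 6418 UMIs.

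The factors were also compared with their paralogs and partners, which were listed by family. Of 21 listed genes with a row, TCF4 was the highest at 421 CPM. TCF4, an E protein like TCF3, ranged from 371 to 496 CPM, which overlaps with TCF3 at 330 to 483 CPM, and the third E protein, TCF12, had 63.5 CPM. Among Ikaros genes, IKZF2 at 90.9 CPM stood above IKZF1 at 56.8 CPM; their ranges, 72.5 to 110 CPM and 41.8 to 76.3 CPM, overlapped narrowly. IKZF5 had 23.1 CPM, IKZF4 6.67 CPM and IKZF3 1.41 CPM. FOXO1 stood above FOXO3 (30.9 CPM) and FOXO4 (7.50 CPM). LEF1 was the main gene of its family, with TCF7L2 at 9.74 CPM and TCF7 at 0.243 CPM, or 5 UMIs in all. SPI1, the close relative of SPIB, had 40.6 CPM against 8.42 CPM. The octamer-binding partners of POU2AF1 had 65.1 CPM (POU2F1) and 28.3 CPM (POU2F2), EBF3 had 7.25 CPM, and BACH1 had 18.2 CPM. The highest partners that are no paralogs were GRB2, an adaptor protein, at 208 CPM and TLE4, a corepressor that works with PAX5, at 184 CPM.

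**Figure D3:**
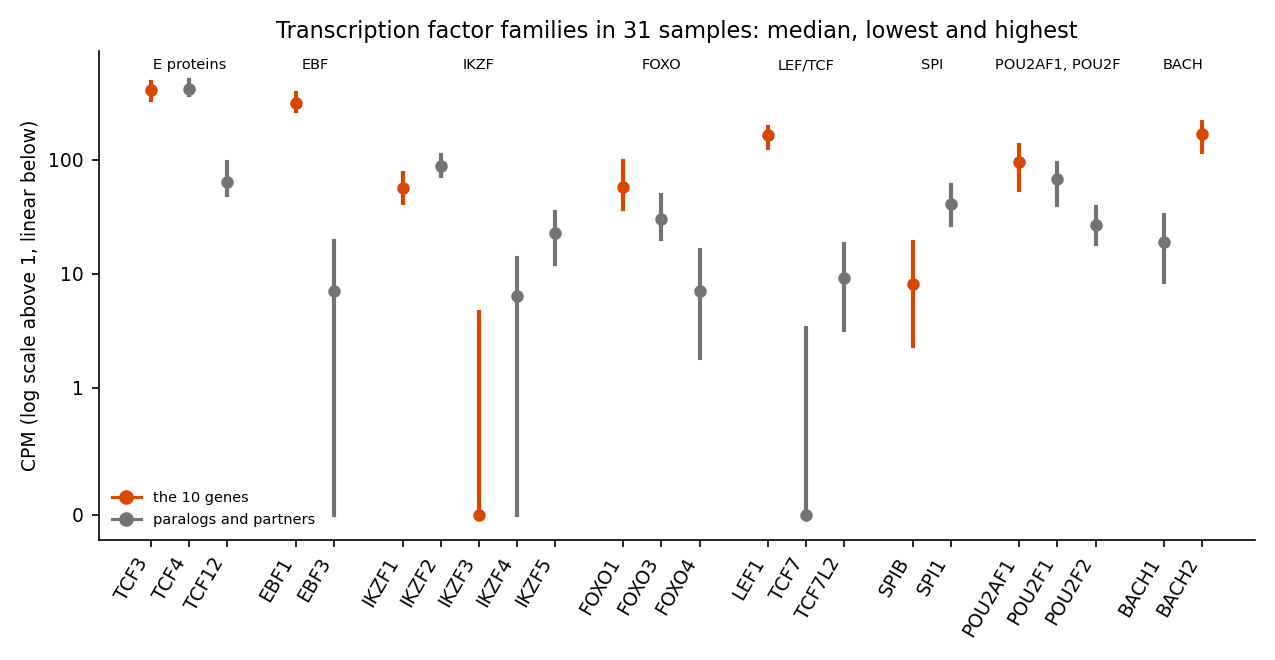
Median (point) and lowest to highest value (line) of CPM in 31 samples for the 10 genes and their paralogs or partners, by family (log scale above 1 CPM, linear below). TCF3 and TCF4 overlap, IKZF2 lies above IKZF1 and IKZF3, and TCF7 is near 0 where LEF1 has 164 CPM.

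Genes known as targets of these factors were present at levels up to 1454 CPM. The surrogate light chain gene IGLL1 led with 1454 CPM, followed by DNTT, the terminal transferase of V(D)J joining, with 722 CPM and VPREB1, the other surrogate light chain gene, with 496 CPM. The lowest of the 21 targets with a row were named after their values were seen: MS4A1, which encodes CD20, had 2.58 CPM and BANK1 had 1 UMI in all. The next lowest were BLK, FCRLA and CD22, at 32.7, 38.3 and 46.5 CPM. Among the 9 inhibitors of E proteins and plasma cell regulators, XBP1 had 351 CPM, ZEB2 162 CPM, ID3 98.6 CPM and IRF4 88.5 CPM. The lowest of the 9 was PRDM1, which encodes the plasma cell factor BLIMP1, with 27 UMIs in all. Of 19 other transcription factors of B-cell precursors, the highest were SOX4 at 342 CPM, MYB at 253 CPM and CBFB at 229 CPM.

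The stability of the 10 genes was first described by their spread. The SD over 31 samples was 8.64% of the mean for TCF3, 8.45% for EBF1, 13.1% for PAX5, 11.4% for BACH2 and 10.4% for LEF1. It was 19.6% for POU2AF1, 19.0% for FOXO1 and 16.3% for IKZF1. Counting noise alone gives 6.51% for TCF3, 7.44% for EBF1, 9.88% for PAX5 and 17.5% for IKZF1, and covers counting error only. Within groups of one construct and day, the chi-square per degree of freedom (19 degrees), which is near 1 when samples differ by counting noise alone, was 2.36 for POU2AF1 and 2.19 for PAX5. These values were higher than those of 99.1% and 98.8% of the genes tested. It was 1.45 for TCF3, 1.25 for EBF1 and 0.670 for IKZF1. POU2AF1 and PAX5 therefore varied more between replicates than counting allows, whereas the spread of IKZF1 was within it.

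The first comparison asked whether the factors differ with strong XIAP KD at days 10 and 13. None of the 10 genes, each of which passed the filter on low counts, was called when 6 samples of SFFV/sh-XIAP were set against 4 of SFFV/sh-CTRL by limma-voom, with Benjamini-Hochberg adjustment and the threshold of the study, 0.25. Over all genes, 0.0792% were called (14 of 17683), and 0 of the 10 genes had an unadjusted p under 0.05, against 5.58% of all genes. The smallest adjusted p was 0.925. TCF3 had a log2 fold change of -0.11 ± 0.07 (SE), EBF1 of 0.00 ± 0.08 and PAX5 of 0.09 ± 0.11. The median log2 fold change was -0.02 over the 10 genes and -0.02 over all genes tested. The 95% interval was -0.24 to 0.03 for TCF3 and -0.16 to 0.16 for EBF1, and the 8 genes other than SPIB and IKZF3 had intervals that together spanned -0.64 (IKZF1) to 0.50 (FOXO1). Taken by day, TCF3 had a log2 fold change of -0.19 ± 0.10 (SE) at day 10 alone (unadjusted p = 0.048 and adjusted p = 0.962 in limma-voom). At day 13 alone it was 0.03 ± 0.10 (SE). A construct effect that differed between days was not called for TCF3 (adjusted p = 0.829 in limma-voom). PAX5 had 0.22 at day 10 alone and 0.00 at day 13 alone, and POU2AF1 had 0.14 and -0.19.

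IKZF1 had the largest fitted decrease of those 8 genes, with a log2 fold change of -0.28 (95% interval -0.64 to 0.07). Its level with SFFV/sh-XIAP was 49.6 ± 7.13 CPM (SD, n = 6), from 41.9 to 57.5 CPM, and with SFFV/sh-CTRL 60.5 ± 14.0 CPM (SD, n = 4), from 42.3 to 76.3 CPM, so that the groups overlapped. At day 13 alone the log2 fold change was -0.59 (unadjusted p = 0.019 and adjusted p = 0.810 in limma-voom), and at day 10 alone 0.09. The day 13 values were 41.9 to 52.6 CPM with SFFV/sh-XIAP, and 62.7 and 76.3 CPM with SFFV/sh-CTRL. The share of all genes that lie apart between these few samples was not computed. At day 13 alone, 1023 of 17729 genes had an unadjusted p under 0.05 in limma-voom for strong KD. The difference of the 2 KD effects was -0.46 for IKZF1, with an unadjusted p of 0.067 and an adjusted p of 0.964 in limma-voom. It was -0.71 at day 13 alone (unadjusted p = 0.028 and adjusted p = 0.953 in limma-voom) and -0.12 at day 10 alone. A change of the construct effect between days was not called either (adjusted p = 0.749 in limma-voom).

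With moderate XIAP KD, EF1a/sh-XIAP (n = 5) against EF1a/sh-CTRL (n = 6), 0 of the 10 genes were called by limma-voom, against 0.017% of all genes (3 of 17683). SPIB was the one gene of the 10 with an unadjusted p under 0.05, against 4.62% of all genes. Under EF1a/sh-XIAP it had 2.30 and 6.35 CPM at day 10 and 6.22, 3.62 and 3.82 CPM at day 13. Under EF1a/sh-CTRL the lowest value was 6.45, the median 8.91 and the highest 14.5 CPM. The groups did not overlap, but the values rested on 12 and 33 UMIs, and 0.215% of all genes tested were lower without overlap in this comparison. The log2 fold change was -1.03 (95% interval -1.88 to -0.17), with an unadjusted p of 0.020 and an adjusted p of 0.992 in limma-voom. With SFFV, SPIB was at 10.2 ± 5.71 CPM (SD, n = 6) with sh-XIAP and at 10.6 ± 2.97 CPM (SD, n = 4) with sh-CTRL, and the difference between the KD effects was 0.80 (95% interval -0.37 to 1.98). The 8 other genes apart from IKZF3 had log2 fold changes between -0.12 and 0.17.

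The promoters were compared with the control shRNA alone, SFFV/sh-CTRL against EF1a/sh-CTRL at days 10 and 13. Of the 10 genes 0 were called by limma-voom, against 0.00566% of all genes (1 of 17683). An unadjusted p under 0.05 was seen for 0 of the 10, against 5.16% of all genes. PAX5 had the smallest p and a log2 fold change of -0.17 (95% interval -0.39 to 0.05). Its mean was 165 ± 21.5 CPM (SD, n = 4) with SFFV/sh-CTRL and 187 ± 13.8 CPM (SD, n = 6) with EF1a/sh-CTRL. The strong and the moderate KD share no samples, whereas the promoter comparison shares its samples with both.

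The strong KD effect was compared with the moderate one, and 0 of the 10 genes were called in limma-voom, against 0.00566% of all genes. At day 4, SFFV/sh-XIAP (n = 2) against SFFV/sh-CTRL (n = 3) gave 0 calls, against 0.0109% of 18336 genes, and log2 fold changes between -0.22 and 0.32 for the 8 genes other than SPIB and IKZF3. Any difference among the 4 constructs over all 31 samples was called for 0 of the 10 genes and for 0.119% of 17676 genes, and the smallest adjusted p was 0.860, for SPIB. A construct effect that differed between days was called for 0 of the 10 and for 0.215% of all genes. The 9 other lists of genes had 0 calls in the KD, promoter and construct comparisons.

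**Figure D4:**
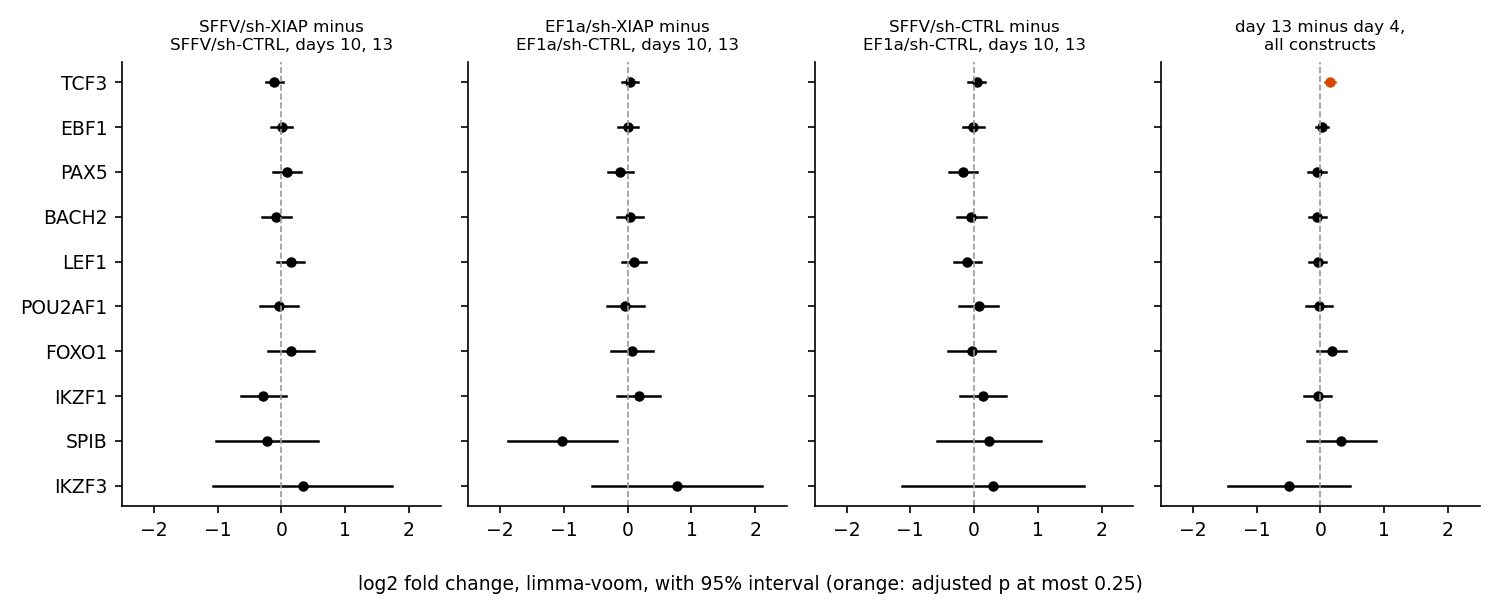
Log2 fold changes of the 10 genes in limma-voom with 95% intervals for both KD comparisons, for the promoters and for day 13 minus day 4 (orange: adjusted p at most 0.25). The intervals widen from TCF3 to IKZF3, and 1 gene, TCF3 at day 13, is orange.

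Over time, 1 of the 10 genes was called. TCF3, which binds the E boxes of B-lineage genes, was higher at day 13 than at day 4. At day 4 its lowest, median and highest values were 330, 382 and 434 CPM (n = 10). At day 10 they were 345, 411 and 461 CPM (n = 10), and at day 13 they were 393, 417 and 483 CPM (n = 11). The days overlapped, but all 11 samples of day 13 lay above the median of day 4. The mean rose from 384 ± 30.1 CPM to 427 ± 26.4 CPM (SD), by 11.0%. The log2 fold change of day 13 minus day 4, with construct as a term, was 0.15 ± 0.04 (SE), or 1.11-fold (95% interval 1.05 to 1.17), with an adjusted p of 0.198 in limma-voom. Over all genes, 0.509% were called between these days (90 of 17676), and 0.311% were called higher. A two-sided permutation test of the mean CPM of day 13 against day 4, with 100000 resamples, gave p = 0.00248 for this gene. This p is unadjusted and takes no account of construct. TCF3 had been picked by the fit on the same samples, so that the permutation test is no separate support.

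By construct, TCF3 had a mean of 383 ± 52.2 CPM at day 4 and 438 ± 22.0 CPM at day 13 with EF1a/sh-CTRL (SD, n = 3 and 3), and of 380 ± 18.8 and 444 ± 34.5 CPM with EF1a/sh-XIAP (SD, n = 2 and 3). It had 384 ± 27.8 and 407 ± 9.03 CPM with SFFV/sh-CTRL (SD, n = 3 and 2), and 392 ± 25.2 and 412 ± 20.2 CPM with SFFV/sh-XIAP (SD, n = 2 and 3). The mean was thus higher at day 13 with each construct, by 14.4%, 17.0%, 5.97% and 4.96% in this order. The ranges of both days were apart with EF1a/sh-XIAP only, which had 2 and 3 samples. The share of all genes that lie apart between these samples was not computed. The means of day 10 did not lie between those of day 4 and day 13 with each construct. With EF1a/sh-CTRL and EF1a/sh-XIAP they did, at 411 and 395 CPM. With SFFV/sh-CTRL the day 10 mean was 458 CPM, and its 2 samples, at 455 and 461 CPM, lay above those of day 13. With SFFV/sh-XIAP the day 10 mean was 392 CPM, as at day 4, and its samples ranged from 345 to 432 CPM. Whether the change differed between constructs was tested over all days with no call for TCF3 (adjusted p = 0.829 in limma-voom). At day 10, between these days, the log2 fold change against day 4 was 0.07 ± 0.05 (SE), with an adjusted p of 0.863. The test of any difference among the 3 days did not call TCF3 (adjusted p = 0.377 in limma-voom).

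The call at day 13 depended on single samples. It held with 20 of 31 samples left out in turn and was lost with 11, where the log2 fold change stayed between 0.12 and 0.18 over all 31 fits. The adjusted p was highest, 0.544, without EF1a/sh-XIAP day 13 replicate 3. It was also lost with the edgeR quasi-likelihood test (adjusted p = 0.313) and at a threshold of 0.05. Total UMIs moved with the day (median 751952.5 at day 4 and 603822 at day 13). A fit with the log2 total as a covariate was added after the data were seen. It gave a log2 fold change of 0.18 (adjusted p = 0.0177 in limma-voom). Because depth and day move together, this fit cannot fully separate them. Whether depth or another difference between the days bears on TCF3 was not tested.

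**Figure D5:**
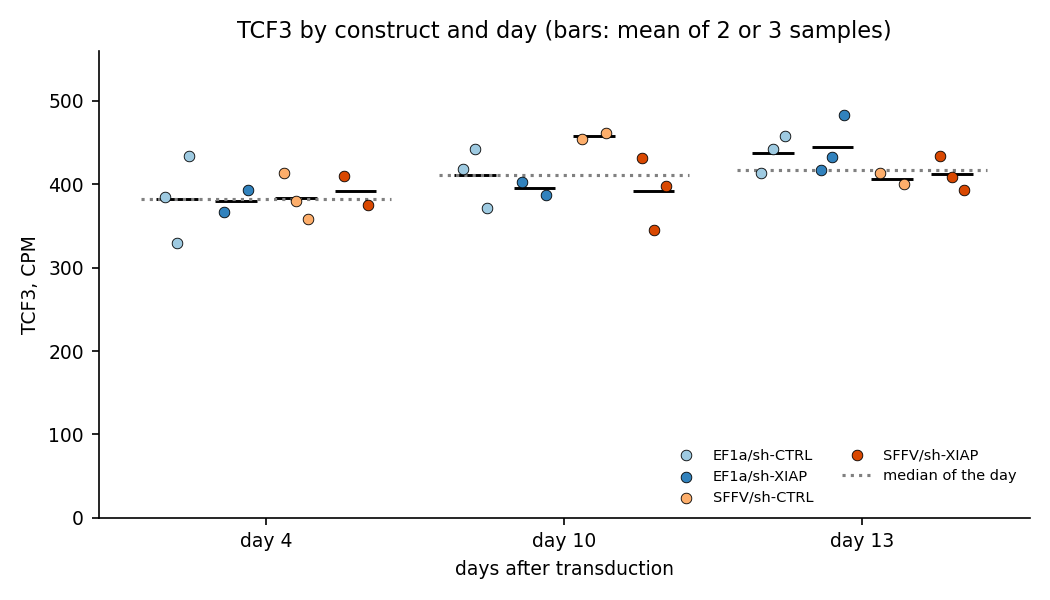
TCF3 in CPM by day and construct; points are samples, short bars the means of 2 or 3 samples and dotted lines the median of each day. The 11 samples of day 13 lie at 393 to 483 CPM, above the day 4 median of 382 CPM.

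The other 9 genes were not called at either day. Against day 4, the log2 fold change at day 13 was 0.03 ± 0.05 (SE) for EBF1 and -0.05 ± 0.07 (SE) for PAX5. It was 0.18 ± 0.11 (SE) for FOXO1, from 54.7 ± 9.18 CPM (SD, n = 10) at day 4 to 62.8 ± 15.6 CPM (SD, n = 11) at day 13. At day 10, 0 of the 10 genes were called, against 0.26% of all genes (46 of 17676). Any difference among days was called for 0 of the 10 and for 0.515% of all genes (91 of 17676).

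Of the known targets, IGLL1 was the one gene called over time, and 0 of the listed paralogs, partners, inhibitors and other transcription factors were called. IGLL1, a target of EBF1, PAX5 and E proteins, had 1374 ± 64.1 CPM at day 4 (SD, n = 10), 1515 ± 68.0 CPM at day 10 (SD, n = 10) and 1494 ± 64.7 CPM at day 13 (SD, n = 11). The log2 fold change was 0.12 ± 0.03 (SE) at day 10, with an adjusted p of 0.0557 in limma-voom, and 0.14 ± 0.03 (SE) at day 13, with an adjusted p of 0.00175. Its range was 1255 to 1447 CPM at day 4 and 1401 to 1600 CPM at day 13, so that these overlapped. The median log2 fold change of the 20 targets tested was 0.00 at day 13, as over all genes. The 5 lists of cell type markers gave no call other than IGLL1.

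The genes whose levels were most like those of a factor were sought among 4137 genes with at least 50 CPM, by Pearson's r of log2 CPM over 31 samples. Each is the highest of all candidates, the points share library depth and cell line, and the values are descriptions. TCF3 was most like the ribosomal pseudogene RPL3P1 (r = 0.75), EBF1 like STC2, which encodes a secreted glycoprotein (r = 0.71), and PAX5 like the kinase gene VRK1 (r = 0.59). BACH2 was most like the gene ENSG00000234683 (r = 0.68), LEF1 like the protein repair gene PCMT1 (r = 0.68) and POU2AF1 like LRRC75A (r = 0.68). FOXO1 was most like SLC25A5, an ADP/ATP carrier of mitochondria (r = 0.58), and IKZF1 like RMND5B (r = 0.60). Among the factors themselves the highest r was that of EBF1 and POU2AF1 at 0.54, and the lowest that of LEF1 and POU2AF1 at -0.45.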

How the data were processed

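The UMI counts of 31 prime-seq samples were deposited by the authors without normalization, as whole numbers for 30667 Ensembl genes. The submitters' processing notes name STAR 2.6.0a and the builds hg38/GRCh38 and mm10/GRCm38; the sources used here do not give the annotation or the counting options. Of the identifiers 29928 are in GENCODE 29 (GRCh38), from which coordinates were taken. Symbols came from a separate list of gene names, which named 30548 identifiers. Samples were assigned by their titles, and no sample given was left out. The methods of the study exclude outlying samples by PCA, and replicate numbers have gaps here. Whether the gaps are those samples is not known, so that the spread between replicates may already lack them.

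A gene was tested if it exceeded 1 CPM in 1/3 of the samples or more. The test was limma-voom (limma 3.58.1, edgeR 4.0.16, R 4.3.3) after TMM normalization, on construct and day, with Benjamini-Hochberg adjustment over all genes and a threshold of 0.25 for the adjusted p. Days 10 and 13 (21 samples) and day 4 (10 samples) were fitted apart for KD and promoters, and all 31 samples for days. Values are CPM of library totals; log2 CPM used a prior count of 2. For a group with no UMI the limit was set at 3 counts. The 10 genes and the lists were chosen with earlier results of these data known. Named genes were the 10 genes, those called or the 3 highest of each list, and the most similar gene. Paralogs were named by family, and IRF4, PRDM1 and the lowest targets were named outside this rule. Alternatives were DESeq2 1.42.0, edgeR, other normalizations and filters, a replicate block, single days, all samples and left-out samples; log2 total UMIs as a covariate and leaving out the 2 smallest libraries were added after the data were seen. Samples of one group differed by more than counting noise in 26 pairs (chi-square per gene 1.07 to 2.42). The summed level of the erythroid markers is not reported here.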

Additional observations from a re-analysis of the deposited data

Results flagged for a closer look

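Single samples far from the others in their group were sought for 9 genes, IKZF3 aside, with Dixon's criterion in 54 groups of 4 to 10 samples. Chance flags about 1 in 20 of these groups, and 4 were found. For each gene the groups were each construct at days 10 and 13 together, all of day 4 and all of day 10. Day 13 as a whole was not screened. IKZF1 with EF1a/sh-CTRL at days 10 and 13 was highest in day 13 replicate 2, at 70.6 CPM against 56.1 CPM in the next sample. IKZF1 at day 4 was lowest in SFFV/sh-CTRL replicate 2, at 41.8 CPM against 55.1 CPM. At day 10, SFFV/sh-XIAP replicate 1 had both the highest PAX5, at 233 CPM against 194 CPM, and the lowest BACH2, at 117 CPM against 163 CPM. These rest on 23 to 128 UMIs.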

How the results depend on the processing

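Under the alternatives run, 0 of the 10 genes were called in the 8 comparisons other than day 13 minus day 4 and any difference among days. At day 13 the 1 call, TCF3, was kept under 7 of 10 alternatives, with log2 fold changes of 0.14 to 0.18. It gave 0 calls at an adjusted p of 0.05 (log2 fold change 0.15), with the edgeR quasi-likelihood test (0.15, adjusted p = 0.313) and without TMM (0.15, adjusted p = 0.261). DESeq2 gave 0.16 (adjusted p = 0.0510). With the replicate block, TCF3 had 0.16 (adjusted p = 0.169). No pairing by replicate number was detected: residuals of same-numbered samples had a mean correlation of -0.00053 over 149 pairs, against 0.00029 over 290 other pairs. In groups of 2 samples the residuals mirror each other, so that these values cannot exclude a pairing. The block changed no call of the 10 genes, and raised the calls over all genes with strong KD at day 4 from 2 to 25. With single samples left out in turn the number called was 0 or 1, with log2 fold changes of 0.12 to 0.18 and adjusted p of 0.0582 to 0.544; the 11 losses came without EF1a/sh-CTRL day 4 replicate 1 or 2 or day 13 replicate 2 or 3, SFFV/sh-CTRL day 13 replicate 1 and its replicate 3 of day 4, EF1a/sh-XIAP day 4 replicate 1 or 2 or day 13 replicate 3, and SFFV/sh-XIAP day 4 replicate 3 or day 13 replicate 1. For any difference among days the number called rose from 0 to 1 with filterByExpr, DESeq2 size factors, log2 total UMIs as a covariate or no filter on low counts, and, among left-out samples, without EF1a/sh-CTRL day 4 replicate 3 (0 to 1). The cause was not tested. Over all genes, calls of strong KD ranged from 0 (DESeq2) to 48 (edgeR), those of day 10 from 21 (DESeq2) to 8868 (no filter), and those of any difference among days from 46 to 3074 (no filter), against 14, 46 and 91. Depth limits SPIB and IKZF3, whose intervals are the widest.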
